A study of Bos taurus with 2 samples.

Results

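The mammary gland of a dairy cow changes with lactation, and the microRNAs (miRNAs) described here are mir-205, miR-203 and mir-31, which are known from basal and stratified epithelium. They were chosen by name, as the entries listed as mir-205 or mir-31 among known bovine miRNAs and as PC-205 or PC-203 among miRNAs conserved in other mammals (prefix PC). Of these 4 names, 3 had an entry, so the members are mir-205-5p, PC-205-5p and PC-203-3p, 3 of 884 unique miRNAs in all. No row of the known miRNAs carried the name mir-31. The only entry of that family was PC-31-5p, which is not a member and is given for comparison.

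The study sequenced small RNA of mammary tissue from 2 cows (Bos taurus), of which 1 was lactating, so each stage has 1 library. The lactating cow was 6 years old and had been in milk for 2 months, and the non-lactating cow was 4 years old and not pregnant, so lactation, age and animal cannot be told apart. For every miRNA the deposited tables hold a read count of its commonest sequence and another that takes in all isomiRs, the variants of a miRNA in length or sequence. The most abundant sequences of the 883 miRNAs with a value in both libraries held 5745936 reads in lactation and 7879028 reads in non-lactation.

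A miRNA is cut from a hairpin, and bases 2 to 8 from its 5′ end, the seed, pair with the mRNAs that it represses. In the mammary gland the milk-secreting luminal cells are surrounded by a basal layer of contractile myoepithelial cells. In mice and humans mir-205 is abundant in the basal cells of stratified and glandular epithelia, and in dog and human cells it represses the mRNAs of ZEB1 and ZEB2, transcription factors that switch off epithelial genes. In mouse skin mir-203 is known for limiting the division of cells that leave the basal layer, where it represses the mRNA of the basal factor TP63. In mice mir-31 is known from keratinocytes and from mammary stem cells. The mir-200 family (mir-200a, mir-200b, mir-200c, mir-141 and mir-429) also represses ZEB1 and ZEB2 and marks epithelial cells in general.

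The mature sequences are shown because PC-205-5p is mir-205-5p with 1 more base at its end, while PC-203-3p and PC-31-5p share no seed with them. They are those of the deposited tables, 5′ to 3′, with the seed in capitals.
mir-205-5p: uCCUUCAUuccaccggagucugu
PC-205-5p: uCCUUCAUuccaccggagucuguu
PC-203-3p: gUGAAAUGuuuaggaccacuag
PC-31-5p: aGGCAAGAuguuggcauagcugu

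The 23 bases of mir-205-5p all stand at the start of PC-205-5p, which is 24 nt long and ends in 1 more base. Both thus have the seed CCUUCAU, and no other of the 884 miRNAs had that seed or a run of 15 bases in common with them. PC-203-3p is 22 nt long, and neither its seed, UGAAAUG, nor a run of 15 of its bases was found in any other listed miRNA. PC-31-5p is 23 nt long with the seed GGCAAGA, so each of the 3 families has a seed of its own.

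The hairpin listed at the position of mir-205 is shown with mir-205-5p in capitals, followed by the hairpin listed with PC-203, with PC-203-3p in capitals, because they show the arm of each member.
mir-205 hairpin: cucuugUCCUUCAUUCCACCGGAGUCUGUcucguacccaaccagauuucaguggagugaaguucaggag
PC-203 hairpin: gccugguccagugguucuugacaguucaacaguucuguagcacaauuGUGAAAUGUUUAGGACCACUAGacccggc

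The mir-205 hairpin lies at chr16:72083257-72083325 on the minus strand of the bovine build BTA 4.0, and mir-205-5p takes bases 7 to 29 of its 69 bases. Folded with RNAfold, the hairpin had a minimum free energy of -33.7 kcal/mol, and 19 bases of mir-205-5p were paired. PC-203-3p takes bases 48 to 69 of a hairpin of 76 bases, with 19 bases paired and a minimum free energy of -35.1 kcal/mol. PC-205 was listed with 1 homologous hairpin, that of the platypus, and PC-203 with homologs in 7 species. No bovine position was listed for either, so the hairpin listed with PC-203 is not shown to be bovine. For the position of mir-205 no gene annotation of BTA 4.0 was used here. The nearest other listed pre-miRNA on chromosome 16 was mir-29b, 1803332 bp away. The epithelial miRNA mir-200b lies on the same chromosome at a distance of 23488172 bp.

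The extra base of PC-205-5p was not that of the hairpin. Counted from the 5′ end of PC-205-5p, with the hairpin's base first and the base of the sequenced miRNA last, the difference was C24U, against the bovine and the platypus hairpin alike. Over the 69 bases of the bovine hairpin the platypus hairpin was identical at 68, with G33A as the 1 difference (bovine base first, counted from the 5′ end of the bovine hairpin), outside both arms. Whether the reads of PC-205-5p came from the bovine mir-205 locus was not tested.

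All 3 members were lower in the lactation library, by close to 4-fold each. Levels are reads of the most abundant sequence per 1000000 clean reads of the library (RPM). Their exact 95% intervals (Clopper-Pearson) cover the counting error of reads only. Copies made by PCR are not independent molecules, so the intervals may be too narrow even for counting error. A ratio divides the RPM in lactation by the RPM in non-lactation. With a single library per stage there is no spread between replicates to set these ratios against, and the p-values of Fisher's exact test speak of the 2 libraries, not of the stages.

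mir-205-5p had 2207 reads in lactation and 11063 reads in non-lactation. That is 184 RPM (177 to 192) in lactation and 693 RPM (680 to 706) in non-lactation, and the intervals do not overlap. The ratio was 0.266 (0.254 to 0.279), or 3.76-fold lower in lactation, and the log2 ratio was -1.91. In the order of levels mir-205-5p was the 73rd of 883 miRNAs in lactation, between mir-19b-3p and mir-365-3p, and the 40th in non-lactation, between mir-342-3p and mir-1-3p.

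PC-203-3p had 149 reads in lactation and 750 reads in non-lactation. Its level was 12.5 RPM (10.5 to 14.6) in lactation and 47.0 RPM (43.7 to 50.5) in non-lactation. The ratio was 0.265 (0.221 to 0.316), 3.77-fold lower in lactation, with a log2 ratio of -1.92. PC-203-3p was at rank 176 in lactation and at rank 109 in non-lactation.

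PC-205-5p had 45 reads in lactation and 249 reads in non-lactation. Its level was 3.76 RPM (2.74 to 5.03) in lactation and 15.6 RPM (13.7 to 17.7) in non-lactation, and its rank was 260 in lactation and 152 in non-lactation. The ratio was 0.241 (0.172 to 0.332), 4.15-fold lower in lactation, with a log2 ratio of -2.05. Of the 3 members it has the fewest reads and the widest interval.

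PC-31-5p was close to the lowest value listed. It had 3 reads in lactation and 14 reads in non-lactation, or 0.251 RPM (0.0517 to 0.733) in lactation and 0.877 RPM (0.479 to 1.47) in non-lactation. The ratio of 0.286 has an interval of 0.0527 to 1.02, whose upper end was below 1 with raw reads as totals, TMM factors, DESeq2 size factors, no scaling or all isomiRs. Under each of these the Bonferroni-adjusted p of Fisher's exact test was 1 over the 883 miRNAs, so the difference did not pass at this depth. In both libraries the levels stood in the order mir-205-5p, PC-203-3p, PC-205-5p and PC-31-5p, and no neighbours in this order had overlapping intervals.

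**Figure D1:**
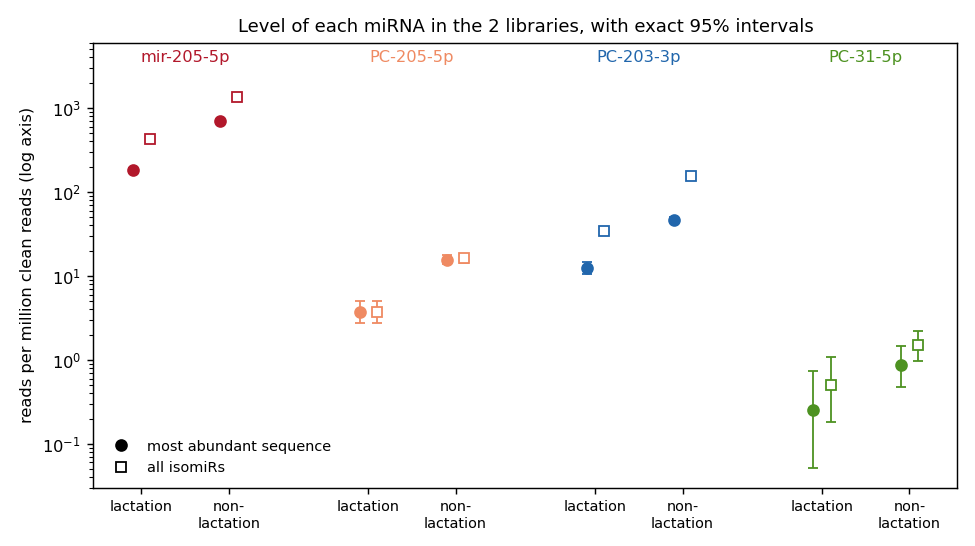
Level of each miRNA in RPM (log axis) in the lactation library (left of each pair) and the non-lactation library. Filled circles are the most abundant sequence, open squares all isomiRs, and bars exact 95% intervals, some smaller than the symbol. mir-205-5p is at 184 in lactation and 693 in non-lactation, and all 3 members are lower in lactation.

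By Fisher's exact test with Bonferroni adjustment over the 883 miRNAs, 3 of 3 members were lower in lactation, while 10.9% of all miRNAs tested were called lower. Many of the 883 have too few reads to be called. Of the 273 with at least 100 summed reads, which include all 3 members, 89 were called lower, so such a call was common at this depth. PC-205-5p is the sequence of mir-205-5p with 1 more base, so in these counts of members they may not be separate miRNAs. The adjusted p was 1.20e-60 for PC-203-3p and 5.57e-21 for PC-205-5p, and for mir-205-5p it was too small to be represented. In all 96 miRNAs were called lower and 154 higher in lactation, a balance that depends on the scaling, with 114 lower and 126 higher under TMM factors, 116 lower and 124 higher under DESeq2 size factors, and 125 lower and 108 higher with no scaling. The test calls small differences of abundant miRNAs, so the size of the ratio was also counted. Among the 273 miRNAs with at least 100 reads in both libraries together, the 3 members were again all at least 2-fold lower, a share that was 22.7% over those 273. Past 4-fold lower stood 1 member, PC-205-5p, against 5.86% of the 273, and the interval of its ratio extends to both sides of 4-fold. From the lowest ratio upward PC-205-5p was the 16th, PC-203-3p the 20th and mir-205-5p the 22nd of the 273, so 15 miRNAs lay below the lowest of them. The median log2 ratio of these 273 miRNAs was 0.24.

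**Figure D2:**
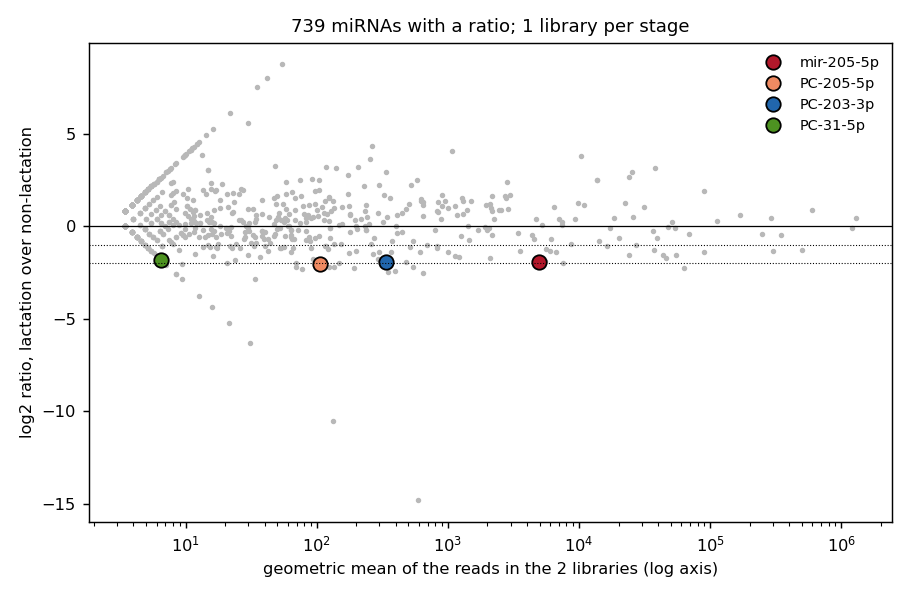
Log2 ratio, lactation over non-lactation, against the geometric mean of the reads in both libraries (log axis) for 739 miRNAs with a ratio, where a listed 0 was set to 3 reads. Dotted lines mark 2-fold and 4-fold lower in lactation. The members (coloured) lie between log2 ratios of -1.91 and -2.05 at levels that differ widely.

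The members did not differ from each other in their ratios beyond counting error. Per 100 reads of PC-203-3p there were 1481 reads of mir-205-5p in lactation and 1475 in non-lactation, which is an odds ratio of 1.00 (exact 95% interval 0.836 to 1.21). The odds ratio of mir-205-5p to PC-205-5p was 1.10 (0.798 to 1.56), and that of PC-205-5p to PC-203-3p was 0.910 (0.618 to 1.32). For each of the 3, Fisher's exact test gave a Bonferroni-adjusted p of 1 over all 21 pairs compared. The intervals still allow a difference in ratio of up to 1.21-fold between mir-205-5p and PC-203-3p. Such a comparison within a library needs no library total.

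Counting all isomiRs in place of the most abundant sequence separated mir-205-5p and PC-203-3p. mir-205-5p then had 5066 reads (423 RPM) in lactation and 21653 reads (1356 RPM) in non-lactation, 3.20-fold lower in lactation (3.11 to 3.30). PC-203-3p had 410 reads (34.3 RPM) in lactation and 2472 reads (155 RPM) in non-lactation, 4.52-fold lower (4.07 to 5.03). These intervals do not overlap, and the odds ratio of mir-205-5p to PC-203-3p became 1.41 (1.26 to 1.58; Fisher's exact test, adjusted p = 3.90e-09 over 21 pairs). PC-205-5p had 45 isomiR reads in lactation and 261 in non-lactation, 4.35-fold lower in lactation, and PC-31-5p had 6 in lactation and 24 in non-lactation.

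The make-up of the isomiRs differed for mir-205-5p. Its most abundant sequence took 43.6% (42.2 to 44.9) of its isomiR reads in lactation and 51.1% (50.4 to 51.8) in non-lactation, a difference of -7.53 percentage points. This passed Fisher's exact test with Bonferroni adjustment over the 233 miRNAs with at least 100 isomiR reads in each library (adjusted p = 1.10e-19). A lower share in lactation was called for 1 of the 2 members tested, and for 23.6% of the 233 (55 miRNAs). A higher share was called for 42 of the 233, so a difference in either direction was common between these libraries. The median share over the 233 was 46.7% in lactation and 47.3% in non-lactation. Read in the other direction, PC-203-3p had a share of 36.3% (31.7 to 41.2) in lactation and 30.3% (28.5 to 32.2) in non-lactation, a difference of 6.0 points that did not pass (Fisher's exact test, adjusted p = 1 over 233). Its isomiRs were of 15 kinds in lactation and 33 in non-lactation, and those of mir-205-5p were of 54 kinds in lactation and 78 in non-lactation, in libraries with unequal reads of each. PC-205-5p had 1 kind in lactation and 2 in non-lactation, and its main sequence took 100% of its reads in lactation and 95.4% in non-lactation, from too few reads for this test.

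**Figure D3:**
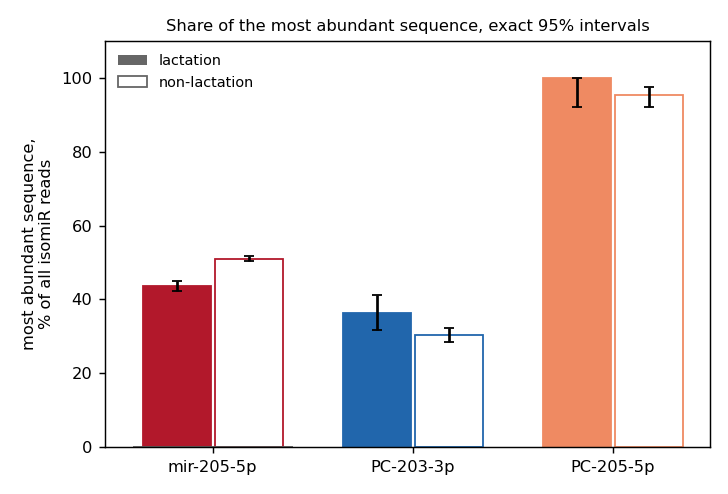
Share of the most abundant sequence among all isomiR reads of each member (percent, axis from 0) in lactation (filled bars, left) and non-lactation (open bars), with exact 95% intervals. mir-205-5p is at 43.6% in lactation and 51.1% in non-lactation, while the intervals of PC-203-3p, at 36.3% in lactation and 30.3% in non-lactation, overlap.

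The share of the longer sequence, PC-205-5p, did not differ detectably between the libraries. PC-205-5p made up 2.00% (1.46 to 2.66) of the reads of both sequences in lactation and 2.20% (1.94 to 2.49) in non-lactation. The odds ratio was 0.906 (0.642 to 1.25; Fisher's exact test, p = 0.580), so a difference within these bounds was not detectable. It is the inverse of the odds ratio of mir-205-5p to PC-205-5p above and not a separate result. With all isomiRs the shares were 0.880% in lactation and 1.19% in non-lactation, with an odds ratio of 0.737 (0.524 to 1.02; Fisher's exact test, p = 0.0660). With the reads of mir-205-5p and PC-205-5p added, the share of the main sequences was 44.1% in lactation and 51.6% in non-lactation, close to the values of mir-205-5p alone.

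The other arm of the mir-205 hairpin was listed as CN-387-3p, a predicted miRNA at the same coordinates, and is shown because both arms come from 1 hairpin.
CN-387-3p: gAUUUCAGuggagugaaguuca
It is 22 nt long, takes bases 44 to 65 of the hairpin and has the seed AUUUCAG. CN-387-3p had 3 reads in lactation and 3 reads in non-lactation, at the lowest value listed, and no fold is given for it. Its share of the reads of both arms was 0.136% (0.0280 to 0.396) in lactation and 0.0271% (0.00559 to 0.0792) in non-lactation, so that nearly all reads came from the 5p arm in both libraries. The odds ratio of 5.01 has an interval of 0.671 to 37.4 (Fisher's exact test, p = 0.0620).

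The members were lower in lactation, while most entries of the mir-200 family were higher. The known entries of its 5 miRNAs, and mir-375-3p, a miRNA of secretory epithelia, were all called higher in lactation, with log2 ratios between 1.15 for mir-429-3p and 4.10 for mir-141-3p. The level of mir-200c-3p was 8172 RPM in lactation and 920 RPM in non-lactation, 8.88-fold higher. mir-141-3p had 324 RPM in lactation and 18.9 RPM in non-lactation, and mir-375-3p had 2784 RPM in lactation and 200.4 RPM in non-lactation. The 3 miRNAs of the mir-183 cluster had log2 ratios of -0.39 for mir-183-5p, 0.07 for mir-96-5p and -0.26 for mir-182-5p, and none of them passed the test. Their reads were few, and the intervals of their ratios all held 1. These were 0.277 to 1.95 for mir-183-5p, 0.829 to 1.33 for mir-96-5p and 0.510 to 1.34 for mir-182-5p. The family also has 5 PC entries, which were added after their values were seen. PC-141-3p, PC-200a-3p and PC-200b-3p were called higher in lactation, and PC-429-1-3p, with 23 reads in lactation and 9 in non-lactation, did not pass. PC-429-2-3p was called lower, like the members, with 93 reads in lactation and 333 in non-lactation, a ratio of 0.373 (0.293 to 0.470) and an adjusted p of 1.16e-16 by Fisher's exact test.

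Within each library, mir-205-5p was set against these 9 epithelial miRNAs. Per 100 reads of mir-200c-3p there were 2.26 reads of mir-205-5p in lactation and 75.3 in non-lactation, 33.4-fold lower in lactation (31.8 to 35.1). Per 100 reads of mir-141-3p, the cluster partner of mir-200c, there were 57.0 reads of mir-205-5p in lactation and 3663 in non-lactation, 64.3-fold lower. Against mir-375-3p the numbers were 6.63 in lactation and 346 in non-lactation, 52.2-fold lower. For the other cluster of the family the difference was smaller, with 9.14-fold lower against mir-200a-3p, 21.7-fold against mir-200b-3p and 8.35-fold against mir-429-3p.

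Over the 9 miRNAs, mir-205-5p passed Fisher's exact test with Bonferroni adjustment over 21 pairs as lower in lactation in 8 and PC-203-3p in 8. The known mir-200 entries and mir-375-3p had been called higher and the members lower, so passing against them largely followed from those calls. The ratios of mir-205-5p and PC-203-3p, 0.266 and 0.265, were nearly equal, so their counts are not separate results. The exception for both members was mir-183-5p, which had 8 reads in lactation and 14 in non-lactation. The odds ratio of mir-205-5p to it was 0.349 (0.137 to 0.962), with an exact adjusted p of 0.438, and that of PC-203-3p was 0.348 (0.134 to 0.976), with an exact adjusted p of 0.796. With the most abundant sequence the folds were between 2.86 and 64.3 for mir-205-5p and between 2.87 and 64.4 for PC-203-3p. With all isomiRs both passed against 9 of 9. The folds were then between 2.67 and 43.9 for mir-205-5p and between 3.77 and 61.8 for PC-203-3p. That of mir-205-5p against mir-200b-3p was 10.2 with all isomiRs.

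**Figure D4:**
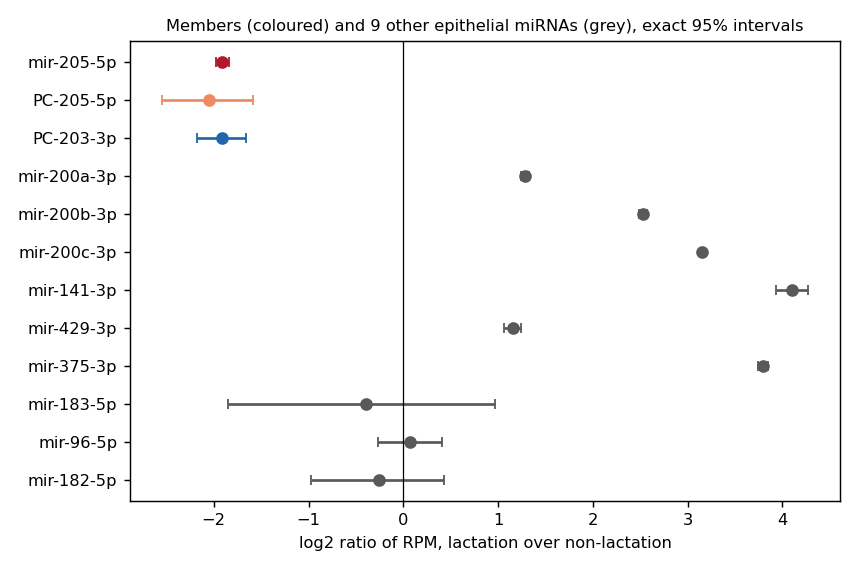
Log2 of the lactation to non-lactation ratio for the members (coloured, upper 3 rows) and of 9 other epithelial miRNAs (grey), with exact 95% intervals. The members lie between -1.91 and -2.05, and the known entries of the mir-200 family and mir-375-3p between 1.15 and 4.10. The mir-183 cluster lies between -0.39 and 0.07, with intervals that span 0.

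Both libraries are of whole tissue, so fewer cells of a type and less RNA per cell cannot be told apart, and which cells carried these miRNAs was not measured. Markers of other cells also differed between the libraries. Of the stromal list (mir-199a, mir-199b, mir-214, mir-100, mir-99a, mir-125b) 5 of 6 were lower in lactation and none higher. Its log2 ratios had a median of -1.60, and its members summed to 5023 RPM in lactation and 18611 RPM in non-lactation. The exception, mir-214-3p, had 26 reads in lactation and 20 in non-lactation. The list for myoepithelium or smooth muscle was split, with mir-221-3p (log2 ratio -1.99) and mir-222-3p (-1.34) lower and mir-143-3p (1.23) and mir-145-5p (0.23) higher in lactation, the last of these turning below 0 with TMM factors, DESeq2 size factors or no scaling. Its summed level was 6939 RPM in lactation and 5973 RPM in non-lactation. The part of these cells in the values of the members was not tested.

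Among the other lists, the pan-epithelial list, which holds the known entries of the mir-200 family and not its PC entries, was higher for 5 of 5, with log2 ratios at a median of 2.53 and a summed level of 12201 RPM in lactation and 1903 RPM in non-lactation. The luminal list had 2 of 5 higher, mir-375-3p and mir-148a-3p, and its median of 0.07 was below 0 under 3 other scalings. Markers of striated muscle were higher for 3 of 5, with 4494 RPM in lactation and 702 RPM in non-lactation, of which mir-1-3p made up 4393 RPM in lactation and 691 RPM in non-lactation. The endothelial mir-126-5p was higher at a log2 ratio of 1.71. Of 6 blood miRNAs 1 was higher and 2 were lower, at a summed level of 132 RPM in both libraries, and mir-144-3p, of red cells, had 3 reads in lactation and 0 in non-lactation. For comparison, the median log2 ratio was 0.43 over the 739 miRNAs with a ratio. Beside these lists the members, at -1.91 to -2.05, each lay nearest to mir-221-3p (-1.99) and mir-199b-5p (-1.91). Next came mir-199a-3p (-2.25) for PC-205-5p, and mir-100-5p (-1.62) for mir-205-5p and PC-203-3p.

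The miRNAs most like the members were then taken as those with the smallest difference in log2 ratio among 124 miRNAs with at least 1000 summed reads. Since the log2 ratios of mir-205-5p and PC-203-3p were nearly equal, at -1.91 and -1.92, the same 5 miRNAs were nearest to both. They were mir-199b-5p, with a ratio of 0.265 (0.228 to 0.307), mir-342-3p with 0.272 (0.261 to 0.284), mir-221-3p with 0.252 (0.242 to 0.261), mir-101-3p with 0.30 (0.296 to 0.305) and PC-7c-5p with 0.307 (0.286 to 0.329). The intervals of mir-199b-5p, mir-342-3p and mir-221-3p overlap that of mir-205-5p, and those of mir-101-3p and PC-7c-5p lie above it. The wider interval of PC-203-3p, 0.221 to 0.316, overlaps those of all 5. Their levels ran from 17.9 RPM in lactation and 67.4 RPM in non-lactation for mir-199b-5p to 1816 RPM in lactation and 6051 RPM in non-lactation for mir-101-3p. This likeness rests on 2 libraries only.

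The direction of the members did not hang on the library totals. Over all scalings and counts tried, the ratio lay between 0.199 and 0.312 for mir-205-5p, between 0.181 and 0.248 for PC-205-5p and between 0.199 and 0.272 for PC-203-3p. TMM factors and DESeq2 size factors moved the median log2 ratio of the 273 miRNAs by -0.26 and -0.28, and leaving out any scaling moved it by -0.42. Each of these also made the members lower in lactation than with clean reads as totals.

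**Figure D5:**
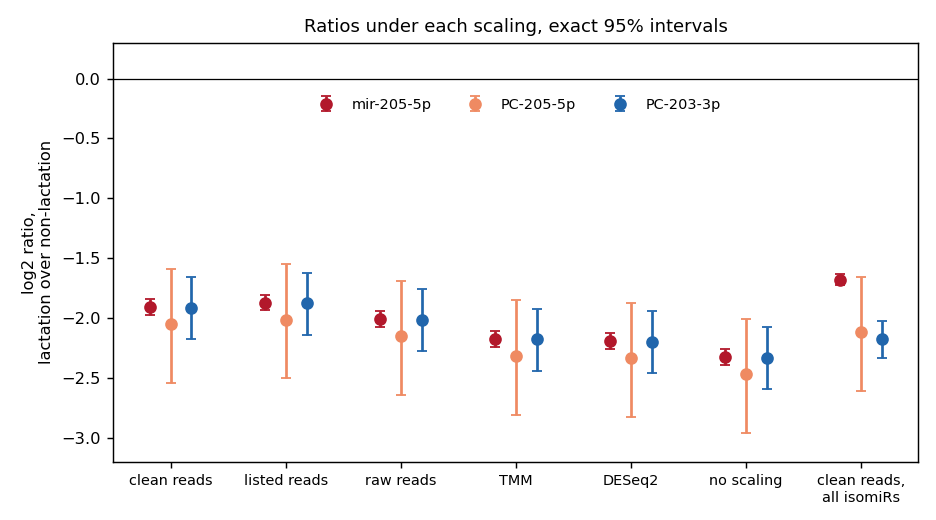
Log2 ratio, lactation over non-lactation, of the 3 members under each scaling of the libraries (clean reads, sum of listed reads, raw reads, TMM, DESeq2, none) and with all isomiRs, with exact 95% intervals. The highest value, -1.68, is that of mir-205-5p with all isomiRs, and mir-205-5p and PC-203-3p part from each other with all isomiRs alone.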

How the data were processed

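Small RNA libraries of 1 lactating and 1 non-lactating mammary gland were sequenced. The deposited values are read counts: the authors filtered out adaptors, reads of low quality and reads of other RNA types, mapped the rest with ACGT101-miR to miRBase 17.0 and the bovine build BTA 4.0, and counted the most abundant sequence and all isomiRs of each miRNA. The labels name Trizol and a TruSeq kit, the methods of the study a miRNeasy kit and an Illumina small RNA kit. For CN miRNAs (candidates predicted from the genome) the columns of isomiR reads and isomiR kinds were taken in the order in which sums are not below the main sequence, the reverse of their header, and 6 sums were left out.

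RPM and ratios used the clean reads of each library as totals, with a listed 0 set to 3 reads. Fisher's exact test was two-sided, with a threshold of 0.05 and Bonferroni adjustment over 883 miRNAs, 21 pairs or 233 shares. The share test had been planned with adjustment over the members alone. Intervals at 95% are Clopper-Pearson, conditional on the summed reads for ratios. The interval of PC-205-5p shows the precision that 294 summed reads give. The test was checked on simulated counts that vary by counting error only, so variation between animals or libraries was not part of this check.

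The members and marker lists were chosen with earlier results of these data known. Named miRNAs are the members, PC-31, entries that share a position, a seed or a run of 15 bases with a member, the marker lists (the arm with more reads), the 5 nearest in log2 ratio and the nearest pre-miRNA; the epithelial comparison and the neighbours in level were added for description. RefSeq's gene table (ARS-UCD2.0) holds MIR205 and MIR31 and was not used for positions.

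Tests were run with scipy 1.17.1 (Python 3.11.15, pandas 2.3.3, numpy 2.4.6), figures with matplotlib 3.10.9 and folding with RNAfold 2.7.2. Scaling factors alone came from DESeq2 1.42.0 and edgeR 4.0.16 under R 4.3.3. Alternatives were other scalings, all isomiR reads, Benjamini-Hochberg adjustment, a read minimum and merged entries.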

Additional observations from a re-analysis of the deposited data

How the results depend on the processing

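With 1 library per stage, no value has a replicate check within the sequencing. The study also ran a microarray on RNA pooled from 3 cows per stage, whose values were not used here. No paired analysis was possible because each stage has 1 library, and no library could be left out. All 28 alternative values of the 3 members' ratios kept their direction and passed the test. Some of these could not have failed. Benjamini-Hochberg adjustment and adjustment over miRNAs with at least 100 summed reads cannot change a ratio and only ease the test. Merging entries left each ratio at its main value. Only the other scalings, all isomiR reads and the added PC-205-5p reads gave other ratios. Among 22 odds ratios recomputed with all isomiR reads, that between mir-205-5p and PC-205-5p was counted in both directions. Of the 22, 19 stayed on their side of the threshold. The other 3 passed only with all isomiR reads, at 1.41 for mir-205-5p to PC-203-3p, 0.374 for mir-205-5p to mir-183-5p and 0.266 for PC-203-3p to mir-183-5p. The cause was not tested. The 62 miRNAs at least 2-fold lower became 16 at 4-fold and 104 without a minimum of reads, since more miRNAs of few reads enter. The luminal median, 0.07, became -0.19 with TMM factors, -0.21 with DESeq2 size factors and -0.34 with no scaling, each of which shifts all ratios downward. The other list medians kept their direction. Adding the reads of PC-205-5p to mir-205-5p was chosen after seeing the data and changed no call. Depth limits PC-31-5p and CN-387-3p, whose differences did not pass the test.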
